A study of Mus musculus with 15 samples.

Results

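The net response of GM4 dendritic cells to 20 h of stimulation was taken as the difference between the 2 arrays made at 20 h and the 3 arrays made at 0 h, 5 of the 15 arrays of the series, chosen by the cell type and time in their titles. Dendritic cells (DC) take up antigen, sense microbes and present antigen to T cells. They were grown for 4 days from bone marrow of female mice of the diabetes-prone NOD strain, aged 6 to 8 weeks. GM4 DC received the growth factor GM-CSF and the cytokine interleukin-4, each at 1 ng/ml, and were purified on a 14.5% metrizamide density gradient, per the labels. Stimulation was with 10 µg/ml of lipopolysaccharide (LPS) from bacterial cell walls together with 50 ng/ml of interferon-γ. The labels of GM4 0 h replicate 1 give neither these growth factor doses nor the gradient, and the source names of all 3 GM4 samples at 0 h mention exposure to the stimulus although their titles say 0 h. The 3 GM4 arrays made at 6 h of the same stimulation served for comparison, as did 5 arrays of GM DC, grown with GM-CSF alone at 1 ng/ml, purified on a 16% gradient and stimulated alike, 3 of them at 0 h and 2 at 20 h. No 20 h culture without LPS and interferon-γ was analysed here, so stimulation and time in culture cannot be told apart. The series describes GM4 DC, and not GM DC, as therapeutic, and its design text calls the replicates biological, with some RNA samples not good.

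LPS is bound by Cd14 and Tlr4 and signals through Myd88 to NF-κB and AP-1, and through a second adaptor to Irf3 and interferon-β. Secreted interferon-β and added interferon-γ act through Jak kinases and on promoters that hold the interferon-stimulated response element (ISRE) and the gamma-activated site (GAS). Maturing DC are known to raise cytokines, costimulatory molecules and chemokine receptors, to lower uptake receptors, and to shift from mitochondrial respiration towards glycolysis.

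RNA had been labelled with biotin and read on oligonucleotide arrays, 1 array per sample. Each probe set gave 1 signal in the authors' linear units, the median signal per GM4 array of either time was 40.3 to 46.5, and 31.4% to 35.3% of probe sets lay below 16. Differences are given as log2(signal + 16) at 20 h minus 0 h, with limma's standard error after ±, a scale that understates the change where a signal is low. Replicates correlated at 0.980 to 0.985 at 0 h and 0.984 at 20 h, against 0.911 to 0.936 between the times. The 3′ to 5′ ratio of the Gapdh controls, a measure that increases as RNA degrades, was 1.07, 1.07 and 1.31 before stimulation and 1.06 and 1.16 at 20 h, so the ranges overlapped. At 0 h the DC markers Itgax (CD11c), H2-Ab1 and Cd83 had signals of 1255, 792 and 1032, 3426, 2080 and 1666 and 3187, 2934 and 3542 on the 3 arrays, all well above the median signal. The neutrophil granule gene Ngp was also well above it, at 1900, 2794 and 1444, so such levels do not measure the purity of the cultures.

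At 20 h, 1082 of 12422 probe sets were higher than at 0 h and 1524 were lower at an adjusted p under 0.05 in limma's moderated test, 21.0% in all. The changes exceeded 2-fold on that scale for 455 higher and 695 lower probe sets, and 4-fold for 128 and 104. With each gene represented by its brightest probe set, 796 of 8251 genes (9.65%) rose and 1182 (14.3%) fell, and the median gene differed by 0.02. Of the 2606 probe sets called, 2602 had 0 h and 20 h arrays that did not overlap, as had 6167 of all 12422, and the arrays of every gene said below to have risen or fallen did not overlap. The shares of 9.65% and 14.3% are the background against which the counts of each gene list stand. At an unadjusted p under 0.05 in either direction 2943 of 8251 genes passed, the background for list counts at that cut. Leaving out GM4 20 h replicate 2, which leaves a single 20 h array, lowered the probe set counts to 552 higher and 840 lower, and leaving out replicate 1 gave 877 and 994. The 20 largest increases included genes of interferon responses, cytokines, chemokines and prostaglandin synthesis, and the 20 largest decreases granule protein, proliferation and uptake receptor genes.

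**Figure D1:**
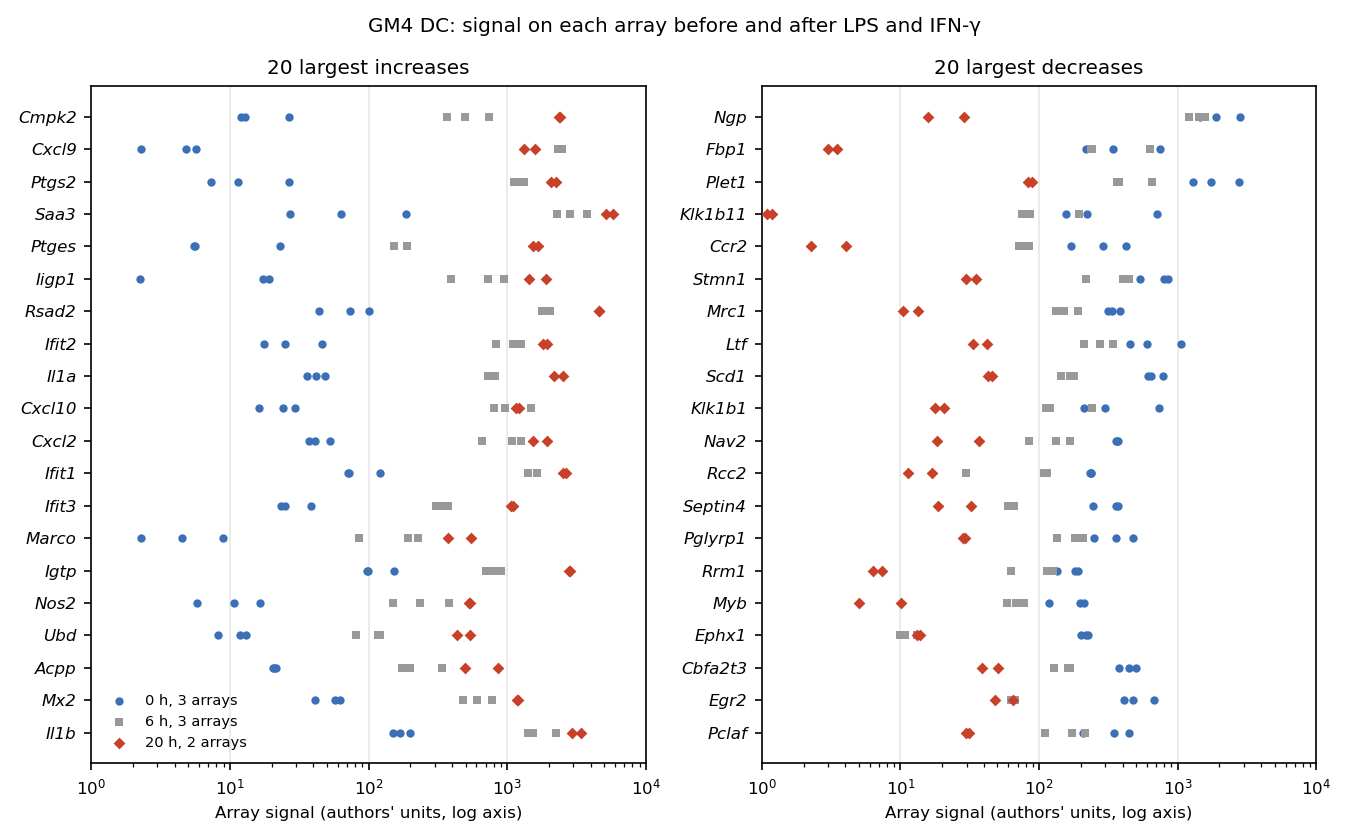
Signal of the 20 genes that rose most and the 20 that fell most on each GM4 DC array (horizontal log axis, authors' signal units), with circles for the 3 arrays at 0 h, squares for the 3 at 6 h and diamonds for the 2 at 20 h. In every row the 20 h arrays lie apart from the 0 h arrays, which the rule of choice required. The 6 h arrays of Egr2 and Ephx1 lie beside the 20 h arrays, whereas those of Ngp and Fbp1 lie with the 0 h arrays.

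Of 21 measured type I interferon-stimulated genes, 16 rose and 0 fell by the adjusted test (20 passed at an unadjusted p under 0.05 in either direction), with a median difference of 1.95. Cmpk2, a mitochondrial nucleotide kinase, had the largest increase of the genes with a single symbol, 6.20 ± 0.31 (adjusted p = 1.45e-08), from signals of 12.9, 26.7 and 12.0 at 0 h to 2391 and 2359 at 20 h. All 3 starting signals of Cmpk2 were near the floor of the scale, and the 2 arrays at 20 h were within a few percent of each other. Rsad2 (viperin, an antiviral radical SAM enzyme) had signals of 43.7, 100.2 and 74.0 at 0 h and 4602 and 4598 at 20 h, a difference of 5.76 ± 0.34 (adjusted p = 7.67e-08). The Ifit genes, whose proteins bind foreign RNA, started higher than Cmpk2. Ifit1 gave 72.2, 120.1 and 71.2 at 0 h and 2668 and 2522 at 20 h (4.68 ± 0.24, adjusted p = 1.48e-08), Ifit2 rose by 5.43 ± 0.23 and Ifit3 by 4.62 ± 0.22. The 0 h and 20 h arrays of all 5 genes did not overlap, which the choice of the 20 largest increases required. Mx2, a dynamin-like antiviral GTPase, rose by 4.12 ± 0.20 and its relative Mx1 by 1.91 ± 0.26. Isg15, a ubiquitin-like modifier, rose by 3.21 ± 0.22 and Usp18, the protease that removes it, by 1.95 ± 0.15. The cytosolic RNA sensor Ifih1 rose by 2.14 ± 0.17 and the exonuclease Isg20 by 3.46 ± 0.34. Smaller rises were those of Samhd1, which hydrolyses deoxynucleotides (0.98), Lgals3bp (0.96) and Ly6e (0.65). The 5 members that did not pass, the RNA editor Adar, the RNA-activated kinase Eif2ak2, Trim25, Ifi35 and Oas1g, had positive differences of 0.45 to 0.70. The call of Ly6e, among those named, was lost without either 20 h array or 0 h replicate 1.

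All 8 measured GTPases induced by interferon-γ rose, with a median of 2.81. These proteins of the Irg and Gbp families attack the vacuoles of intracellular microbes. Iigp1 rose most, from 2.25, 19.0 and 17.2 to 1898 and 1431 (5.91 ± 0.32, adjusted p = 3.38e-08), and Igtp from 98.5, 152 and 98.2 to 2854 and 2790 (4.45 ± 0.21, adjusted p = 1.42e-08). Neither gene's 2 groups overlapped, and Igtp was the more even among replicates at 0 h. Of the guanylate-binding proteins, Gbp7 rose by 3.34 ± 0.39, Gbp3 by 2.56 ± 0.19 and Gbp2 by 2.20 ± 0.13. Irgm2, Irgm1 and Ifi47 rose by 3.06, 2.09 and 1.56. Members of the Ifit, Irg and Gbp families resemble each other in sequence, so probe sets can pick up a relative's RNA.

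Promoters from RefSeq (GRCm38.p6, 250 bases before to 50 after the transcript start) were searched on both strands. The ISRE core was taken as a pair of GAAA separated by any 2 bases (GAAANNGAAA, or TTTCNNTTTC read on the opposite strand), and the GAS as TTCNNNGAA. The motifs were counted separately and can overlap. The ISRE core was present in 8 of 16 promoters of type I interferon-stimulated genes (50%) and 6 of 7 of the GTPase genes (85.7%), against 256 of 6576 measured genes with a promoter (3.89%). The GAS was present in 6 of 16 (37.5%) and 3 of 7 (42.9%), against 8.5% of measured genes. Among the 17 largest increases with a promoter, 6 held the ISRE core (35.3%) and 2 the GAS, and of the 18 largest decreases with a promoter 0 held either. Over all genes that rose, 51 of 647 promoters (7.88%) held the ISRE core, against 27 of 973 promoters of genes that fell (2.77%). These matches describe sequence only, with no measurement of binding. The promoters of Rsad2, Ifit1, Cxcl10 and Igtp are shown because these genes were among the largest increases and each held the ISRE core, which stands in capitals:
Rsad2: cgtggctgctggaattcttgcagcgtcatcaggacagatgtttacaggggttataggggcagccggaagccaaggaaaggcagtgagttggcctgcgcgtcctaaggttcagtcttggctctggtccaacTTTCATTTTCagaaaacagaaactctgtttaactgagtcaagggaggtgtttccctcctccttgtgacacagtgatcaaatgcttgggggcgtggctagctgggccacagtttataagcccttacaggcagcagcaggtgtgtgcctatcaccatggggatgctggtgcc
Ifit1: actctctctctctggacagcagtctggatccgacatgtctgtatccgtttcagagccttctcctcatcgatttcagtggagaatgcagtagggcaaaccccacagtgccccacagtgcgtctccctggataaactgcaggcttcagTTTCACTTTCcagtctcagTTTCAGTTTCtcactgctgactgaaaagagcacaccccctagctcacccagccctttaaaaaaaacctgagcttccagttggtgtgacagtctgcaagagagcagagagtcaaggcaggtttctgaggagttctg
Cxcl10: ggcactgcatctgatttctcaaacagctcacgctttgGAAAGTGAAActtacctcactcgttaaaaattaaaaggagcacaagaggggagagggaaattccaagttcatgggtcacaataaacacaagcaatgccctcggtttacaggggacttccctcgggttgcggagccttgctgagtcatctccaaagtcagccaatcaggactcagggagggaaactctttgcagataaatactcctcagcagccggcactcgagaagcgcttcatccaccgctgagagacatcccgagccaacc
Igtp: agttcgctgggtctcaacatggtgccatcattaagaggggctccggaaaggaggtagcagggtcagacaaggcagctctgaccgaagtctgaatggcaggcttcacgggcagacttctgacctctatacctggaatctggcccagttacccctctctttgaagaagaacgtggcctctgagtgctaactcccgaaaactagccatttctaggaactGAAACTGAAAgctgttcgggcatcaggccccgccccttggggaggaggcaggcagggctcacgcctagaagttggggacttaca
They lie at chr12:26456403-26456702 on the minus strand, chr19:34640639-34640938 on the plus strand, chr5:92348840-92349139 on the minus strand and chr11:58199306-58199605 on the plus strand. Ifit1 held 2 cores, starting 104 and 85 bases before the transcript start, and the single core started 120 bases before it in Rsad2, 213 in Cxcl10 and 34 in Igtp.

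Among 18 interferon regulatory factors, Stat factors and Jak kinases, 5 rose and 2 fell, with a median of 0.10. Irf7, which amplifies type I interferon transcription, rose from 155, 175 and 121 to 1114 and 1740 (3.10 ± 0.20, adjusted p = 1.87e-07). Irf1, a transcription factor of interferon responses, rose from 478, 517 and 579 to 2598 and 2529 (2.26 ± 0.13, adjusted p = 5.39e-08). Stat3 and Jak1 rose by 0.65 and 0.55. Irf8, needed for a class of DC, rose by 0.71 ± 0.23, a call lost in 15 of 28 alternatives. The 5 rises numbered 2 without 20 h replicate 1 and 3 without 20 h replicate 2. Jak2 and Stat5a, the latter a mediator of GM-CSF signals, fell by 0.72 and 0.71. Irf4 differed by -0.62 ± 0.28, Stat6 by 0.02 ± 0.20 and Batf3 by -0.27 ± 0.21, none past the threshold. Among genes named, calls lost with 1 array fewer were those of Irf8 (without either 20 h array, 0 h replicate 1 or 2 or some arrays of other groups), Jak1 (without either 20 h array), Jak2 (without 20 h replicate 2 or 0 h replicate 1 or 2) and Stat3 (without 20 h replicate 1).

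Of 8 chemokines known to attract T cells or DC, 2 rose and 1 fell, with a median of -0.14. Cxcl9 and Cxcl10, ligands of Cxcr3 on effector T cells, were the 2 that rose. Cxcl9 had signals of 5.73, 4.80 and 2.27 at 0 h and 1582 and 1312 at 20 h (6.17 ± 0.15, adjusted p = 7.24e-12) and Cxcl10 of 24.3, 29.7 and 16.3 at 0 h and 1215 and 1166 at 20 h (4.95 ± 0.28, adjusted p = 5.39e-08). Ccl17, a ligand of Ccr4 known to be induced by interleukin-4, moved the other way, from 6819, 5376 and 5998 to 1356 and 1327 (-2.16 ± 0.24, adjusted p = 2.06e-05). Ccl22, the other Ccr4 ligand, had signals of 6535, 5252 and 6637 at 0 h and 4806 and 4612 at 20 h and did not pass (-0.37 ± 0.29, adjusted p = 0.426). Ccl5, a chemokine for T cells and monocytes, was bright at both times, with overlapping signals of 5384, 4285 and 6273 at 0 h and 5876 and 5598 at 20 h (0.13 ± 0.40, adjusted p = 0.883).

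Of 14 chemokines known to attract monocytes or neutrophils, 7 rose and 2 fell, with a median of 1.37. The neutrophil chemokine Cxcl2 had signals of 52.6, 40.8 and 37.4 at 0 h and 1526 and 1931 at 20 h (4.87 ± 0.27, adjusted p = 3.96e-08), and its relatives Cxcl1 and Cxcl5 rose by 3.22 ± 0.19 and 2.60 ± 0.34. Cxcl5 was uneven at 20 h, at 125 and 292, and still clear of 12.2, 21.8 and 22.4 at 0 h. The macrophage inflammatory proteins Ccl3 and Ccl4 rose by 3.32 ± 0.28 and 2.56 ± 0.20. The monocyte chemokine Ccl2 rose by 1.93 ± 0.31 and Ccl8 by 1.31 ± 0.35. Ccl7 had signals of 195, 509 and 324 at 0 h and 925 and 856 at 20 h and did not pass (1.44 ± 0.51, adjusted p = 0.0627). Ccl9 and Ccl6 fell by 0.82 and 1.19. Single arrays decided the calls of these genes named here: Ccl6 (without 20 h replicate 1) and Ccl8 (without 20 h replicate 1 or 0 h replicate 1). The κB motif, bound by NF-κB, occurred in 3 of 9 promoters of this list (33.3%), those of Cxcl1, Cxcl2 and Ccl9, and in those of Cxcl10 and Il6. It was found in 5 of 16 cytokine promoters (31.2%), 8 of 16 promoters of the NF-κB pathway itself (50%) and 9.84% of those of all measured genes. Among the largest changes with a promoter, it occurred in 4 of 17 increases (23.5%) and in 4 of 18 decreases (22.2%). Over all genes called, its share was 10.7% of those that rose and 11% of those that fell, near that of all measured genes. Cxcl2 is shown as the largest increase among the neutrophil chemokines, at chr5:90903649-90903948 on the plus strand, with its 2 overlapping κB matches in capitals, 1 base apart and starting 97 and 96 bases before the transcript start:
Cxcl2: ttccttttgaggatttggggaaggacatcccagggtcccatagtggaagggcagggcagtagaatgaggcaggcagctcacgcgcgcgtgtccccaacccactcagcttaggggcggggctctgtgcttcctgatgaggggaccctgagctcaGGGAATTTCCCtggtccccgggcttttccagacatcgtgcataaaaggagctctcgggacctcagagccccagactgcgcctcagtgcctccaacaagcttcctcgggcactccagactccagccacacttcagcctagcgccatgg

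Of 15 chemoattractant receptors 4 rose (26.7%) and 2 fell (13.3%), a share of falls near the background. Fpr2, a formyl peptide receptor, rose from 70.9, 119 and 33.7 to 709 and 772 (3.18 ± 0.31, adjusted p = 6.75e-06). Ccrl2, which binds chemerin without signalling, the complement receptor C3ar1 and the scavenger receptor Ackr3 rose by 1.85, 1.70 and 1.24. Ccr2, the Ccl2 receptor of monocytes and their progeny, fell from 427, 289.5 and 169.9 to 4.05 and 2.25 (-3.94 ± 0.27, adjusted p = 3.29e-07), among the 5 largest decreases. Ccr7, which guides mature DC to lymph nodes, was bright at both times, at 3095, 2671 and 3382 at 0 h and 2020 and 1541 at 20 h. Its difference was -0.78 ± 0.26 (adjusted p = 0.0477), close to the threshold, and it did not pass in 13 of the 28 alternatives, median centring among them. The call of Ccr7, among those named, was lost without either 20 h array, any 0 h array or some arrays of other groups.

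Inflammatory and T cell polarising cytokines rose for 11 of 19 measured members and fell for 2, with a median of 1.45. Both interleukin-1 genes were among the 20 largest increases. Il1a had signals of 35.8, 41.9 and 48.9 at 0 h and 2187 and 2532 at 20 h (5.35 ± 0.17, adjusted p = 2.23e-10) and Il1b of 149.5, 199.5 and 169 at 0 h and 2954 and 3413 at 20 h (4.09 ± 0.28, adjusted p = 3.24e-07). The replicates of either gene lay close together at each time. Tnf rose from 20.4, 41.0 and 10.5 to 476 and 791 (4.05 ± 0.32, adjusted p = 1.05e-06) and Il6 from 130.2, 196 and 133 to 2228 and 2121 (3.72 ± 0.29, adjusted p = 9.52e-07). Both are NF-κB targets that drive the acute phase response, and Tnf was the less even of the pair. Il12b, the shared p40 chain of interleukin-12 and interleukin-23, had signals of 49.6, 62.8 and 96.5 at 0 h and 349 and 318 at 20 h (2.07 ± 0.34, adjusted p = 6.33e-04) and was higher still at 6 h, at 2301, 1267 and 935. Il12a, the p35 chain, rose by 1.56 ± 0.23, and Ebi3, a chain of interleukin-27, by 0.96 ± 0.18. Il15, which sustains NK and memory T cells, rose by 1.61 ± 0.19, the death ligand Tnfsf10 by 1.75 ± 0.21, Inhba (activin A) by 2.73 ± 0.25 and Csf3 by 1.46 ± 0.25. The lymphotoxin chain Ltb fell from 209, 218 and 153 to 32.9 and 25.2 (-2.21 ± 0.27, adjusted p = 6.35e-05). Csf1 fell by 0.95 and lost its call in 12 of 28 alternatives, quantile normalization and median centring among them. Ifnb1 and Ifng did not pass, with signals of 2.80, 12.5 and 15.2 at 0 h and 30.8 and 5.76 at 20 h for Ifnb1 and 2.70, 0.289 and 0.578 at 0 h and 0.889 and 0.699 at 20 h for Ifng, low at both times. Csf1, named here, did not pass without either 20 h array, 0 h replicate 2 or 3 or some arrays of other groups.

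Inhibitory cytokines and decoys also rose, for 8 of 15 members, with 2 lower and a median of 0.89. Il18bp, which captures interleukin-18, rose from 73.5, 65.4 and 109 to 933 and 1040 (3.37 ± 0.24, adjusted p = 4.50e-07). Il1rn, the interleukin-1 receptor antagonist, rose from 536, 636 and 635 to 3753 and 3568 (2.58 ± 0.16, adjusted p = 1.50e-07). Il10 had signals of 2.67, 3.03 and 2.91 at 0 h and 39.96 and 23.8 at 20 h (1.32 ± 0.21, adjusted p = 4.80e-04), without overlap. The haem oxygenase Hmox1 and the Tnf receptor Tnfrsf1b rose by 2.84 and 1.92. Lgals9, a galectin that engages T cells, rose by 1.20. Tgfb1 fell from 769.8, 605 and 599.6 to 285 and 293 (-1.13 ± 0.22, adjusted p = 0.00172) and the decoy receptor Il1r2 fell by 0.91. Ido1, the tryptophan-degrading enzyme, had signals of 49.2, 60.3 and 37.1 at 0 h and 86.8 and 55.9 at 20 h (0.42 ± 0.22, adjusted p = 0.214). Without either 20 h array or 0 h replicate 2, Il1r2 of the genes named did not pass.

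NF-κB pathway genes gave 5 of 19 higher and 1 lower, with a median of 0.51. Nfkbiz, a nuclear inhibitor-like factor needed for part of the secondary response, rose from 27.5, 23.4 and 39.0 to 309 and 286 (2.78 ± 0.21, adjusted p = 7.63e-07). The kinase Ikbke, which activates Irf3, rose by 1.51 ± 0.33, and Ikbkg, Rela and Tnip1 rose by 0.95, 0.75 and 0.51, while the 1 fall was that of Birc2 (-0.64). The 1 fall numbered 0 without 0 h replicate 1 or 3 or 20 h replicate 2 and with the probe sets of a gene averaged, and 2 in 9 other alternatives. The inhibitors Nfkbia (0.51 ± 0.18) and Tnfaip3 (0.82 ± 0.33) did not pass. Of 17 AP-1 and early growth response genes 5 rose and 4 fell. Without 20 h replicate 1 these were 3 and 3. Fosl1, Atf3, Ier3, Mafk and Junb rose by 2.24, 1.64, 1.62, 1.25 and 0.81, while Fos and Jun differed by 0.20 and 0.02 without passing. Egr2, a macrophage factor that interleukin-4 is known to induce, fell from 676, 407 and 474 to 47.7 and 64.9 (-2.87 ± 0.21, adjusted p = 6.32e-07). Egr1, Ier2 and Myc fell by 1.14, 1.29 and 1.24. Not passing without single arrays, of the genes named, were Birc2 (without 20 h replicate 2 or 0 h replicate 1 or 3), Egr1 and Junb (each without 20 h replicate 1), Ier3 (without either 20 h array) and Tnip1 (without either 20 h array, any 0 h array or some arrays of other groups).

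Of 22 feedback inhibitors 5 rose and 3 fell, with 8 rises when GM 0 h replicate 3 and GM 6 h replicate 1 were left out, and 5 falls with array weights or with only the groups compared in the fit. Socs3 and Socs1, which block Jak kinases, rose by 2.98 ± 0.36 (adjusted p = 4.83e-05) and 1.82 ± 0.22 (adjusted p = 4.74e-05), Socs3 from 96.7, 101 and 110.3 to 1006 and 839. Cish, a Stat5-induced member of that family, went the other way, from 999, 819 and 587 to 288 and 218 (-1.58 ± 0.27, adjusted p = 8.44e-04), and Socs2 fell by 0.90. The phosphatase Dusp1, the mRNA-decay factor Zfp36 and the stress protein Gadd45g rose by 1.22, 0.69 and 3.40. Rgs2, which limits G protein signals, fell by 1.27. Among genes named, calls lost with 1 array fewer were those of Socs2 (without 20 h replicate 2) and Zfp36 (without either 20 h array or 0 h replicate 1 or 2).

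Of 13 lipid mediator genes 3 rose and 3 fell, with a median of -0.06. Ptgs2 (cyclooxygenase-2) had signals of 11.4, 7.35 and 26.8 at 0 h and 2246 and 2059 at 20 h (6.17 ± 0.32, adjusted p = 2.51e-08). Ptges, the inducible terminal synthase of prostaglandin E2, had signals of 5.53, 23.1 and 5.65 at 0 h and 1541 and 1671 at 20 h (5.95 ± 0.32, adjusted p = 2.63e-08). Both were near the floor on every 0 h array. The phospholipase Pla2g4a, which releases arachidonic acid, rose by 2.01 ± 0.26 and was the third member that rose. The 3 that fell serve lipoxygenase products. Lta4h and Ltc4s, enzymes of leukotriene synthesis, fell by 1.84 (adjusted p = 2.06e-05) and 1.64 (adjusted p = 0.00374), and the lipoxygenase Alox15 by 1.25 (adjusted p = 0.0337). The constitutive synthase Ptges2 (-0.09 ± 0.35) and the degrading enzyme Hpgd (0.05 ± 0.16) did not pass. Without either 20 h array or 0 h replicate 1 or 2, Alox15 of the genes named did not pass.

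Of 14 genes of arginine metabolism and nitric oxide, 3 rose and 3 fell. Nos2, the inducible nitric oxide synthase, rose from 5.82, 10.7 and 16.5 to 526 and 541 (4.36 ± 0.31, adjusted p = 4.60e-07), with the cationic amino acid carrier Slc7a2 (2.68 ± 0.24) and Gch1, which makes the synthase's cofactor (1.19 ± 0.21). Arg1, the arginase that competes for the same substrate, had signals of 1669, 2122 and 2188 at 0 h and 2691 and 2488 at 20 h and did not pass (0.38 ± 0.19, adjusted p = 0.180). Oat, Pts and Srm fell by 0.86, 1.09 and 1.15. The call of Oat, among those named, was lost without 20 h replicate 2.

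Oxidative burst and antioxidant genes rose for 13 of 20 members with 0 lower by the adjusted test, and the median was 0.86. At an unadjusted p under 0.05 in either direction 17 passed. Acod1, which makes itaconate, had signals of 433, 998 and 542 at 0 h and 5294 and 5038 at 20 h (3.03 ± 0.27, adjusted p = 2.83e-06), and Sod2, the mitochondrial superoxide dismutase, of 135, 225 and 192 at 0 h and 1196 and 1334 at 20 h (2.70 ± 0.17, adjusted p = 1.38e-07). Neither overlapped between the times. Genes for glutathione and thioredoxin systems that are known targets of Nrf2 rose, Srxn1 (2.08), Gclm (1.65), Txnrd1 (1.29), the cystine carrier Slc7a11 (1.11) and Gsr (1.04). The metallothioneins Mt1 and Mt2 rose by 1.69 and 1.99. Cybb, the catalytic subunit of the phagocyte oxidase, rose by 1.56 ± 0.50, losing its call in 10 of 28 alternatives, and its partner Cyba differed by -0.39 ± 0.16. Cytosolic Sod1 differed by -0.35 ± 0.14. Cybb, named here, did not pass without either 20 h array, any 0 h array or some arrays of other groups.

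Of 22 endocytic and phagocytic receptors 8 rose and 5 fell. Marco, a scavenger receptor for bacteria, rose from 2.28, 4.48 and 8.87 to 374 and 546 (4.48 ± 0.34, adjusted p = 7.36e-07). Mrc1, the mannose receptor and a classic interleukin-4 target, fell from 334, 386 and 316 to 10.4 and 13.3 (-3.69 ± 0.24, adjusted p = 1.72e-07). Each was near the floor at the time when the other was high. Clec4d, a C-type lectin for mycobacterial glycolipids, had signals of 77.7, 99.2 and 116 at 0 h and 939 and 1101 at 20 h (3.20 ± 0.22, adjusted p = 2.72e-07), and its neighbour in function Clec4e rose by 2.01 ± 0.24. Mertk, which binds apoptotic cells, and the scavenger receptor Stab1 rose by 1.59 and 1.51. The Fc receptor chains Fcer1g and Fcgr1 rose by 1.35 and 0.97. Olr1, Clec4a2, Cd93 and Cd36 fell by 1.87, 1.27, 0.97 and 0.81. The 5 falls numbered 3 without either 20 h array. Single arrays decided the calls of these genes named here: Cd36 (without either 20 h array, 0 h replicate 1 or 2 or some arrays of other groups) and Cd93 and Fcgr1 (each without either 20 h array or 0 h replicate 3).

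Of 10 genes of Toll-like receptor recognition, 4 rose and 2 fell. Cd14, the LPS co-receptor, rose from 825, 949.7 and 876 to 4722 and 4756 (2.41 ± 0.19, adjusted p = 9.52e-07), and Tlr6, Myd88 and Cd180 rose by 2.24, 0.96 and 0.79. Ly86, the partner of Cd180, and the kinase Irak1 fell by 1.04 and 1.13. Complement genes gave 3 of 10 higher and 2 lower: Cfb of the alternative pathway, the inhibitor Serping1 and Hc (C5) rose by 1.48, 1.10 and 0.82, whereas C1qa and Cfp (properdin) fell by 1.76 and 1.17. The complement counts were 1 and 1 without 20 h replicate 2, 2 and 1 without replicate 1, and 1 and 4 with only the groups compared in the fit. Lysosomal genes gave 4 of 28 higher (14.3%) and 6 lower (21.4%), close to the background, and the 4 rises numbered 2 to 8 when single arrays were left out (8 without 0 h replicate 3). Ctsc, the protease that activates granule enzymes, rose by 2.06 ± 0.26, with the proteases Ctsk and Ctsh (0.78 and 0.42) and the membrane protein Lamp2 (0.72), and the glycosidases Gusb, Man2b1 and Glb1 fell by 1.94, 1.47 and 0.97. Cd63, Neu1 and Hexa fell by 1.12, 0.73 and 0.70. Not passing without single arrays, of the genes named, were C1qa (without either 20 h array), Cd180 (without either 20 h array or 0 h replicate 1 or 3), Ctsh (without either 20 h array, 0 h replicate 1 or 2 or some arrays of other groups), Ctsk and Serping1 (each without either 20 h array or 0 h replicate 1 or 2), Hc (without 20 h replicate 2) and Neu1 (without 20 h replicate 1 or 0 h replicate 2 or 3).

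In the class I pathway 5 of 14 rose and 0 fell, with 5 passing at an unadjusted p under 0.05 in either direction, near the share of all genes at that cut. The peptide transporter genes Tap1 and Tap2 rose from 923, 935 and 923 to 2685 and 2688 (1.52 ± 0.18, adjusted p = 4.54e-05) and by 1.27 ± 0.17, and the loading factor Tapbp by 1.16 ± 0.18. The immunoproteasome gene Psmb9 rose by 0.42 ± 0.13, and Psmb8 differed by -0.18 ± 0.14. The class I heavy chain H2-K1 (0.24 ± 0.19) and B2m (-0.01 ± 0.17) were bright throughout and did not pass. In the class II pathway 0 of 16 rose and 1 fell (6.25%, a share under the background). Unadjusted, 6 passed, also near the share of all genes. Ifi30, a lysosomal thiol reductase, fell from 2160, 1409 and 1988 to 523 and 399.5 (-1.96 ± 0.26, adjusted p = 9.31e-05). H2-Ab1 had signals of 3426, 2080 and 1666 at 0 h and 1353 and 934 at 20 h, without overlap, and did not pass (-1.01 ± 0.38, adjusted p = 0.0764), H2-Aa differed by -0.69 ± 0.24, the invariant chain Cd74 by -0.40 ± 0.22 and the transactivator Ciita by -0.15 ± 0.35. The count of members lower in the class II list was 2 without 0 h replicate 2 and 3 without 0 h replicate 3. It was 3 with quantile normalization, the filter on low signals or the RNA quality covariate, 4 with array weights and 6 with the replicate number as a block. Psmb9, named here, did not pass without either 20 h array, any 0 h array or some arrays of other groups.

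Costimulatory and maturation genes gave 2 of 18 higher (11.1%) and 4 lower (22.2%), with a median of -0.15. Cd40, the receptor for helper signals from T cells, rose from 170.1, 180.0 and 202 to 828 and 863 (2.11 ± 0.13, adjusted p = 7.53e-08), and Tnfsf9 (4-1BB ligand) by 1.41 ± 0.32. Cd80 had signals of 194, 192 and 119.5 at 0 h and 291 and 241 at 20 h (0.64 ± 0.29, adjusted p = 0.153), and Cd83 of 3187, 2934 and 3542 at 0 h and 2264 and 2102 at 20 h (-0.55 ± 0.29, adjusted p = 0.213). Cd86, by its brightest probe set, had signals of 646, 972 and 776 at 0 h and 986 and 1133 at 20 h (0.42 ± 0.27, adjusted p = 0.318), and its other probe set was called lower, so the direction for Cd86 is unsettled. Without 20 h replicate 2 the list counts were 1 and 2. Cd24a, Cd48 and Relb fell by 1.49, 1.27 and 1.22. Among 22 genes that mark DC identity, 3 rose (1 without either 20 h array, 0 h replicate 1 or 2 or some arrays of other groups) and 4 fell (2 without either 20 h array, 8 with the replicate block). Itgax (CD11c), the integrin by which DC are recognised, fell from 1255, 792 and 1032 to 208 and 216 (-2.17 ± 0.19, adjusted p = 3.04e-06), Itgae by 0.91 and Ccr7 and Relb as given above. The rises were those of Sirpa, an inhibitory receptor (0.75), the factor Bcl6 (0.65) and Irf8 (0.71). Single arrays decided the calls of these genes named here: Bcl6 and Irf8 (each without either 20 h array, 0 h replicate 1 or 2 or some arrays of other groups), Ccr7 (without either 20 h array, any 0 h array or some arrays of other groups), Itgae (without 20 h replicate 1) and Relb and Tnfsf9 (each without 20 h replicate 2).

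Genes known to respond to interleukin-4 and Stat6 were lower for 9 of 23 members (39.1%) and higher for 3 (13.0%), with a median of -0.37. Fbp1, a gluconeogenic enzyme, fell furthest, from 739, 343 and 218 to 3.02 and 3.48 (-4.37 ± 0.46, adjusted p = 1.35e-05). Its 0 h arrays were uneven, replicate 1 being highest, and both 20 h arrays were near 0. Mrc1, Egr2, Ccl17, Cish, Alox15 and Myc, given above, also fell, as did Socs2 and Pparg, a fatty acid-sensing nuclear receptor (-1.10 ± 0.21). Chil3, a chitinase-like protein used as a marker of interleukin-4 exposure, stayed bright, at 6238, 5666 and 5841 at 0 h and 5920 and 6149 at 20 h (0.03 ± 0.18, adjusted p = 0.941). Klf4, the receptor chain Il4ra and Stab1 rose by 1.61, 0.89 and 1.51. The sources used here do not say whether interleukin-4 was present during stimulation. Not passing without single arrays, of the genes named, were Alox15 and Il4ra (each without either 20 h array or 0 h replicate 1 or 2) and Socs2 (without 20 h replicate 2).

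Of 15 glycolysis genes 9 rose and 0 fell, with a median of 0.70 and 11 passing at an unadjusted p under 0.05 in either direction. The glucose carrier Slc2a1 had signals of 160.1, 180.3 and 144 at 0 h and 1156 and 1155 at 20 h (2.73 ± 0.35, adjusted p = 7.16e-05) and the hexokinase Hk2 of 287, 391 and 232 at 0 h and 1634 and 1581 at 20 h (2.38 ± 0.35, adjusted p = 2.26e-04), while Hk1 differed by -0.58 ± 0.29. Pfkp, Pfkfb3 and Pfkl, which set flux at the phosphofructokinase step, rose by 1.38, 1.25 and 1.23, and Hif1a, a factor that drives these genes, by 0.60. The enzymes Tpi1, Pkm and Pgk1 rose by 0.92, 0.70 and 0.54. The count of 9 was 5 without 0 h replicate 1, 4 without 20 h replicate 1 and 5 without 20 h replicate 2. Among genes named, calls lost with 1 array fewer were those of Hif1a (without either 20 h array or 0 h replicate 1 or 2), Pfkfb3 (without 20 h replicate 1) and Pfkl, Pgk1 and Tpi1 (each without either 20 h array or 0 h replicate 1).

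Of 31 respiratory chain and ATP synthase genes, 0 rose and 15 fell (48.4%), with a median of -0.42. The largest falls were those of the complex I genes Ndufc1, from 588, 517 and 424 to 191 and 151 (-1.49 ± 0.25, adjusted p = 7.95e-04), and Ndufb8 (-1.31 ± 0.20). Uqcrc1 of complex III and Cox5b of complex IV fell by 0.92 and 1.05. Citrate cycle and fatty acid oxidation genes fell for 16 of 29 members (55.2%) and rose for 1, the carnitine transferase Cpt1a (0.76). The largest of these falls were in Acaa2, the mitochondrial thiolase, from 1035, 1103 and 1072 to 178 and 231 (-2.31 ± 0.29, adjusted p = 5.99e-05), and in Idh2, the mitochondrial isocitrate dehydrogenase, from 104, 138 and 89.6 to 9.81 and 10.1 (-2.27 ± 0.26, adjusted p = 2.61e-05). Fumarase (Fh1), Idh1 and Idh3g fell by 2.08, 1.95 and 1.84. Without either 20 h array or 0 h replicate 2, Cpt1a of the genes named did not pass.

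Cholesterol and fatty acid synthesis genes fell for 14 of 24 members (58.3%) and rose for 2, with a median of -0.68. Scd1, the stearoyl-CoA desaturase, fell from 609, 637 and 785 to 45.8 and 43.0 (-3.51 ± 0.30, adjusted p = 1.99e-06), and the fatty acid synthase Fasn from 215, 203 and 128 to 24.3 and 51.5 (-1.89 ± 0.39, adjusted p = 0.00315). The isoprenoid enzyme Idi1 fell by 1.92 and the citrate lyase Acly by 1.22. The isoprenoid synthase Fdps fell by 2.14 by its brightest probe set, while another of its probe sets was called higher. Of the sterol enzymes, Dhcr7, Sqle, Cyp51, Lss, Hmgcs1 and Fdft1 fell by 1.11, 0.99, 0.95, 0.87, 0.73 and 0.63. Scd2, the elongase Elovl6 and the exporter Abcg1 fell by 0.80, 0.76 and 0.59. Nr1h3, the oxysterol receptor LXRα, rose by 1.96 ± 0.16, and its target Abca1, a cholesterol exporter, by 0.69 ± 0.23, Abca1 losing its call in 13 of 28 alternatives. The 14 falls numbered 6 without 20 h replicate 1, 8 without 20 h replicate 2 and 9 without 0 h replicate 1 or 2, while the list median stayed between -0.73 and -0.66 in those alternatives. Not passing without single arrays, of the genes named, were Abca1 (without either 20 h array, 0 h replicate 1 or 2 or some arrays of other groups), Abcg1 (without 20 h replicate 2), Cyp51 and Lss (each without either 20 h array or 0 h replicate 1 or 2), Elovl6 and Fasn (each without 20 h replicate 1), Fdft1 (without either 20 h array or 0 h replicate 1 or 3), Hmgcs1 (without either 20 h array or 0 h replicate 2), Scd2 (without either 20 h array, any 0 h array or some arrays of other groups) and Sqle (without 20 h replicate 1 or 0 h replicate 1 or 2).

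**Figure D2:**
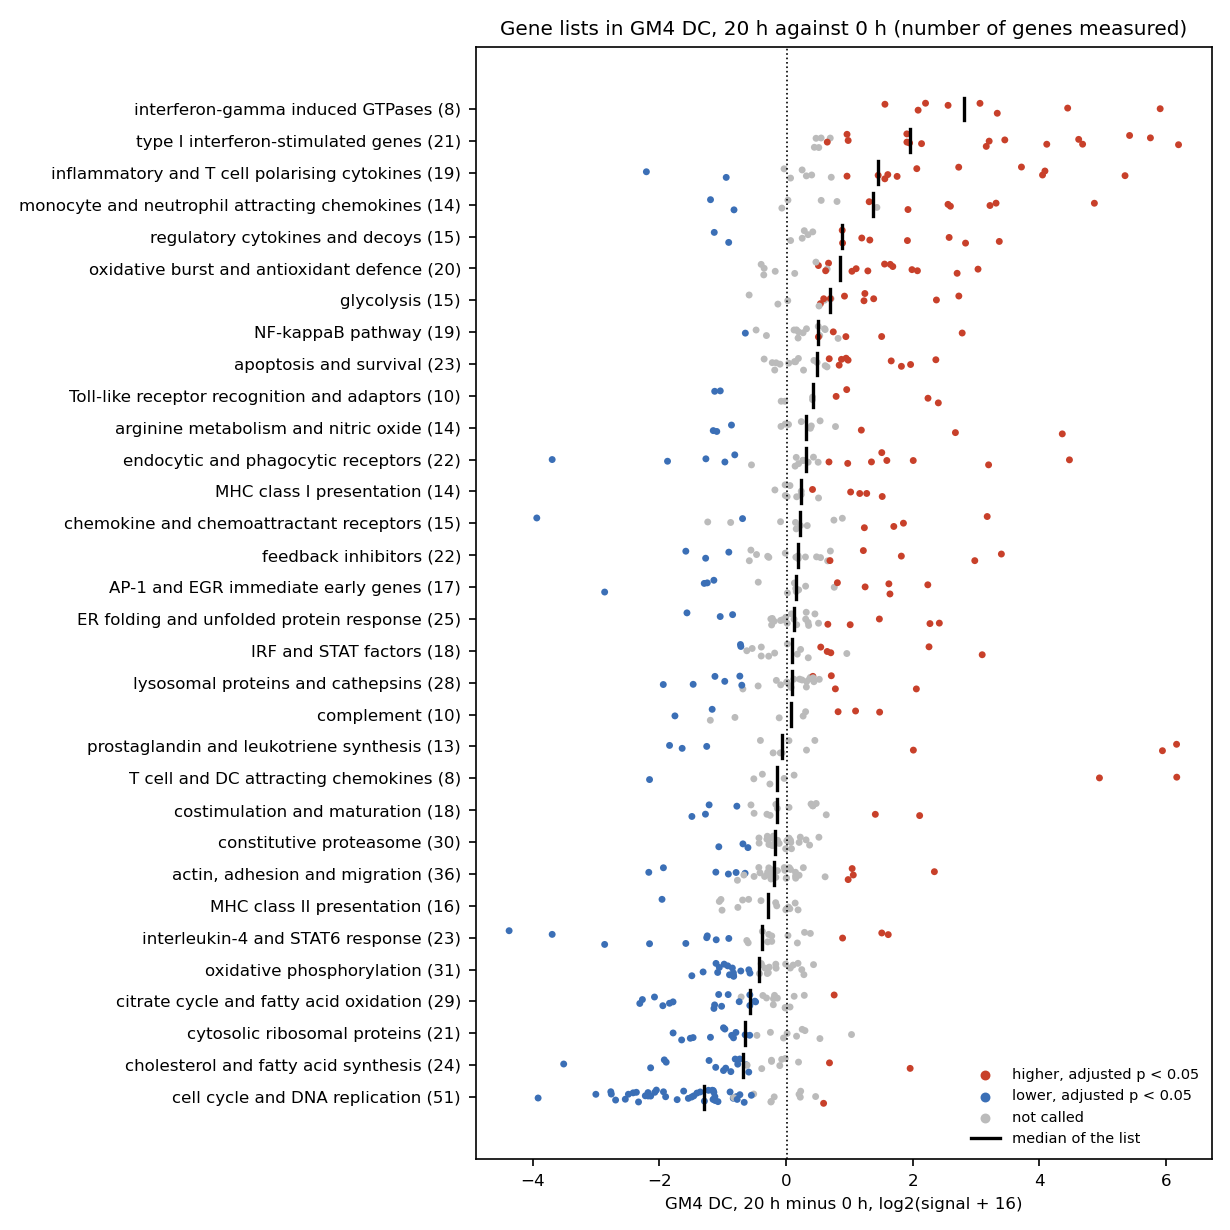
Log2 differences of 20 h minus 0 h in GM4 DC for the members of each pathway list (horizontal axis, log2(signal + 16)), ordered by list median, with a bar at the median and a dotted line at the median of all genes. Interferon lists lie at the top, where all 8 GTPases are red, and the cell cycle list at the bottom, where 41 of 51 genes are blue. The same gene can stand in more than 1 list.

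Of the lists, the cell cycle held the most decreases. Of 51 cell cycle and DNA replication genes 41 fell (80.4%) and 1 rose, with a median of -1.29. Stmn1, which destabilises microtubules, fell from 789.9, 854 and 533 to 35.0 and 29.5 (-3.92 ± 0.38, adjusted p = 7.03e-06), though its other probe set was not called. The ribonucleotide reductase genes Rrm1 and Rrm2, which supply deoxynucleotides, had differences of -3.00 ± 0.36 (adjusted p = 4.29e-05) and -2.69 ± 0.24 (adjusted p = 2.39e-06), Rrm1 falling from 182, 191 and 135 to 7.36 and 6.38. On both 20 h arrays Rrm1 was near the floor, and its other probe set was not called. Top2a, the topoisomerase of dividing cells, the mitotic kinesin Kif20a and the mitotic cyclin Ccnb2 fell by 2.77, 2.76 and 2.54. Cdk1, the kinase that drives mitosis, fell from 237, 263 and 163 to 30.7 and 29.9 (-2.33 ± 0.32, adjusted p = 1.44e-04). The helicase subunit Mcm5 fell from 394, 328 and 204 to 28.6 and 54.0 (-2.49 ± 0.32, adjusted p = 8.83e-05), with no call outside its brightest probe set. The survival and spindle genes Birc5 and Aurkb fell by 2.14 and 2.18. Mki67 fell by 2.42 by its brightest probe set, but another of its probe sets was called higher. The inhibitor Cdkn1a was the 1 gene higher (0.59 ± 0.19), a call lost in 13 of 28 alternatives. The G1 cyclins Ccnd2 (0.47 ± 0.26), Ccnd3 (-0.24 ± 0.24) and Ccne1 (-0.23 ± 0.18) and the factor E2f1 (0.21 ± 0.22) did not pass, while Ccnd1 fell by 1.08. Among genes named, calls lost with 1 array fewer were those of Ccnd1 (without 20 h replicate 2) and Cdkn1a (without either 20 h array, 0 h replicate 2 or 3 or some arrays of other groups).

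An E2F site, searched as TTTGGCGC or TTTCCCGC on both strands, was chosen for its known role in replication genes after their fall was seen. It occurred in 7 of 42 cell cycle promoters (16.7%), against 215 of 6576 measured genes (3.27%) and 46 of 973 genes that fell (4.73%). Mcm5 is shown as the largest decrease among the Mcm helicase genes whose window held it, at chr8:75109259-75109558 on the plus strand, with the site in capitals starting 149 bases before the transcript start:
Mcm5: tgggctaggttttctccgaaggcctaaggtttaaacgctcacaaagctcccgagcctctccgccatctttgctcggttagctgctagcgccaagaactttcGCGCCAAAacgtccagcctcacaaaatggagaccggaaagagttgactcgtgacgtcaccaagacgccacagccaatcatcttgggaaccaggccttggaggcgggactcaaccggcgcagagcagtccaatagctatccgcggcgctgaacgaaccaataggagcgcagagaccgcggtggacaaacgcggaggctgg

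**Figure D3:**
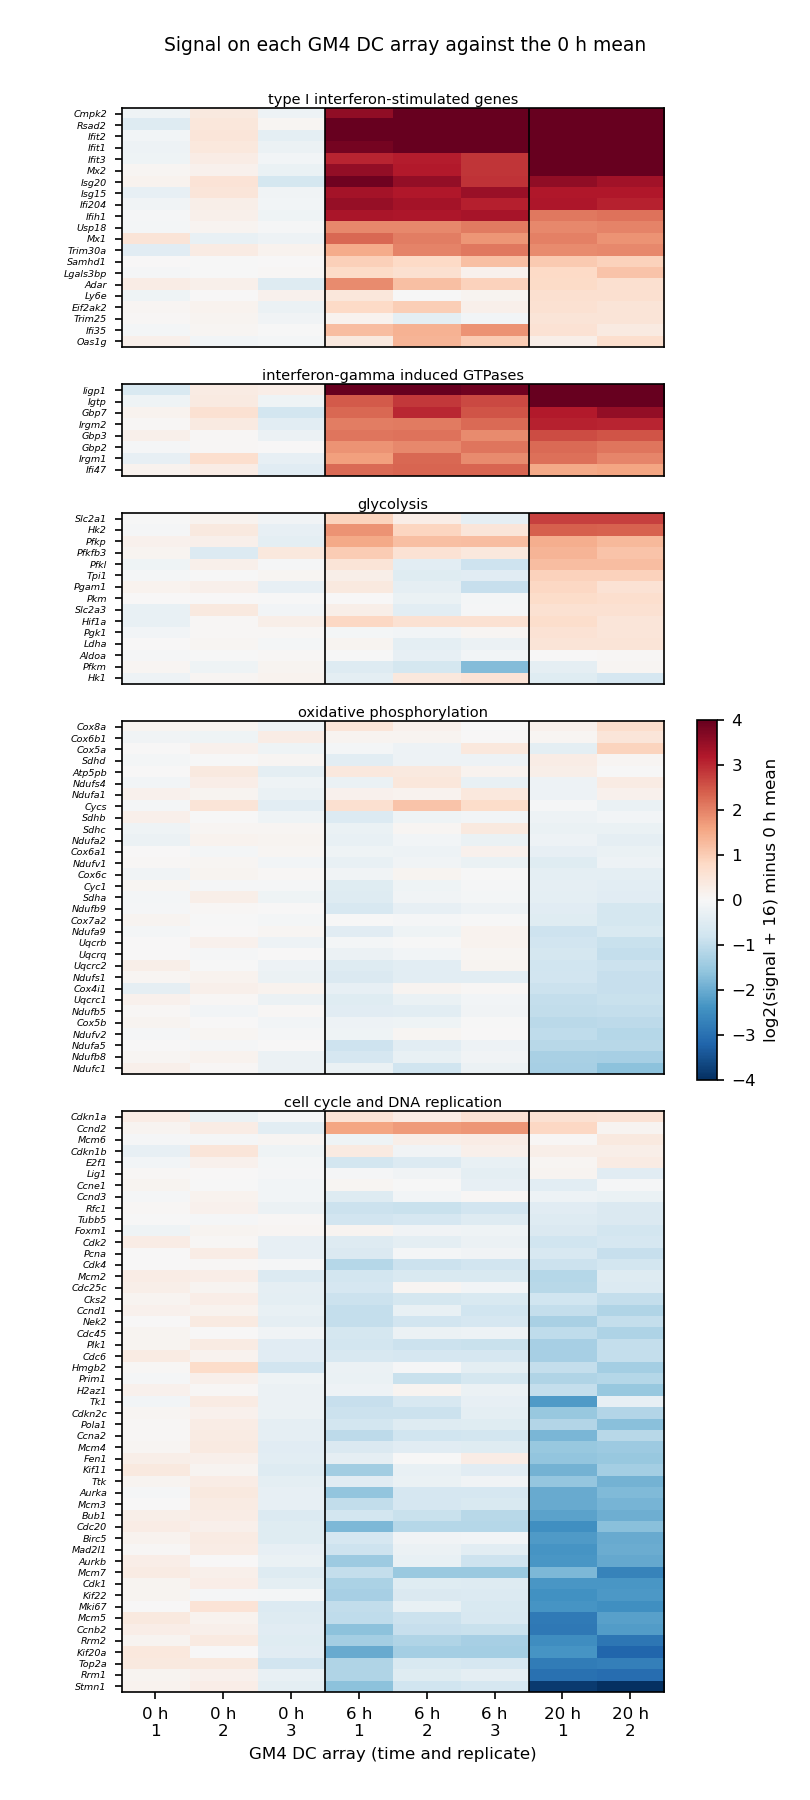
Each GM4 DC array's log2(signal + 16) minus the mean of the 3 arrays at 0 h, for 5 gene lists (rows are genes, columns the 8 arrays by time, red higher and blue lower, with values beyond 4 drawn at the end of the scale). Most interferon genes are red from 6 h on, while most falls of respiratory and cell cycle genes deepen between 6 and 20 h.

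Of 21 cytosolic ribosomal protein genes 12 fell (57.1%) and 0 rose, led by Rpl10a and Rpl8 (-1.78 and -1.65). Many processed pseudogenes resemble these genes, and Rps4x (-0.79) and Rpl22 had other probe sets called the opposite way. Of 30 constitutive proteasome genes 3 fell and 0 rose, a share of falls (10.0%) below the background. Unadjusted, 5 passed in either direction, also a share below that of all genes. Psmc3, Psmb3 and Psmd4 fell by 1.06, 0.68 and 0.60, and 1 fall passed without 20 h replicate 1. Endoplasmic reticulum and unfolded protein response genes gave 5 of 25 higher and 3 lower. The oxidase Ero1a rose from 403, 671 and 482 to 2764 and 2809 (2.42 ± 0.43, adjusted p = 0.00110), with Trib3 (2.27 ± 0.28), Atf4 (1.47 ± 0.22) and Ddit3 (1.01 ± 0.18), which belong to the Atf4 stress pathway. The translocon subunit Sec61b, Herpud1 and Xbp1 fell by 1.57, 1.04 and 0.84. Single arrays decided the calls of these genes named here: Psmb3 (without 20 h replicate 1), Psmd4 (without either 20 h array or 0 h replicate 3) and Xbp1 (without 20 h replicate 2).

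Of 23 apoptosis and survival genes 9 rose and 0 fell, with 12 passing unadjusted. The inflammatory caspases Casp4, which senses intracellular LPS, and Casp1 rose from 76.5, 103 and 90.6 to 525 and 529 (2.37 ± 0.18, adjusted p = 6.89e-07) and from 148, 141 and 122 to 499 and 549 (1.82 ± 0.21, adjusted p = 2.89e-05). The caspase-8 inhibitor Cflar and the survival factor Bcl2l1 rose by 1.66 and 0.84. Actin, adhesion and migration genes gave 4 of 36 higher (11.1%) and 6 lower (16.7%), near the background, and 1 higher without either 20 h array, with 3 lower without replicate 1. The fibronectin receptor chain Itga5 rose by 2.34 ± 0.30 and the matrix proteases Mmp9 and Mmp14 by 1.06 and 0.98, and the intermediate filament gene Vim by 1.04, whereas the actin regulators Coro1a and Gsn fell by 1.94 and 1.11. Lsp1 and Selplg fell by 0.65 and 0.79, and the integrins Itgax and Itgae are given above. Actb differed by 0.00 ± 0.22. Not passing without single arrays, of the genes named, were Itgae and Selplg (each without 20 h replicate 1), Lsp1, Mmp9 and Vim (each without either 20 h array or 0 h replicate 1) and Mmp14 (without either 20 h array).

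Genes outside these lists also stood among the 20 largest changes each way. Saa3, an acute phase apolipoprotein, had signals of 27.0, 63.0 and 186 at 0 h and 5793 and 5151 at 20 h (5.96 ± 0.47, adjusted p = 1.04e-06), with a wide spread at 0 h and the brightest 20 h values among the named increases. Ubd, a ubiquitin-like modifier induced by interferon-γ and Tnf, rose from 8.23, 13.1 and 11.8 to 535 and 434 (4.21 ± 0.24, adjusted p = 5.76e-08), and the acid phosphatase Acpp by 4.17 ± 0.38. Among the decreases, Plet1, a surface glycoprotein, fell from 2782, 1726 and 1284 to 83.2 and 88.5 (-4.18 ± 0.32, adjusted p = 8.25e-07). Klk1b11, a kallikrein-related peptidase, fell from 704, 223 and 156 to 1.19 and 1.10 (-4.17 ± 0.50, adjusted p = 4.24e-05), and Klk1b1 by 3.42. The Klk1b genes are near-identical copies, so these probe sets may not tell them apart. The progenitor factor Myb fell from 196, 211 and 117 to 10.2 and 5.03 (-2.99 ± 0.26, adjusted p = 2.28e-06), and the corepressor Cbfa2t3, also known from progenitors, by 2.91. Ephx1, an epoxide hydrolase, Nav2, Rcc2, Septin4 and Pclaf, a partner of the replication clamp, fell by 2.85 to 3.16 on the log2 scale.

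Markers of other cell types moved with time. Of 18 neutrophil and granule genes 10 fell (55.6%) and 4 rose. Ngp, a neutrophil granule protein, had the largest decrease of the genes with a single symbol, from 1900, 2794 and 1444 to 28.8 and 15.9 (-5.72 ± 0.29, adjusted p = 1.48e-08), and lactoferrin (Ltf) from 598, 1059 and 456 to 33.5 and 42.3 (-3.66 ± 0.33, adjusted p = 2.92e-06). On the 20 h arrays neither exceeded 42.3. S100a8, S100a9 and Camp fell by 2.28, 2.53 and 2.14, the primary granule enzymes Mpo, Prtn3 and Elane by 2.13, 1.85 and 1.17, and Pglyrp1, a granule peptidoglycan-binding protein outside the list, by 3.03. Fpr2, Lcn2, Chil1 and Mmp9, which activated myeloid cells also make, were the 4 that rose, 2 of them without 20 h replicate 1. The summed signal of the list was 4691 and 4472 at 20 h, against 11510, 15976 and 10195 at 0 h. Ly6g, the defining surface marker, had signals of 128, 284 and 82.7 at 0 h and 69.1 and 63.2 at 20 h (-0.98 ± 0.34, adjusted p = 0.0541), and the receptor Csf3r differed by 0.42 ± 0.28. The sums did not overlap. Fewer neutrophils and less RNA per neutrophil cannot be told apart in RNA from a whole culture, and the part of such cells in the falls above was not tested. Among genes named, calls lost with 1 array fewer were those of Chil1 (without 20 h replicate 1) and Mmp9 (without either 20 h array or 0 h replicate 1).

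Monocyte and macrophage markers gave 6 of 15 higher and 4 lower, and their summed signal was 15651 and 15943 at 20 h, against 7048, 6593 and 7662 at 0 h. Adgre1 (F4/80) rose from 36.7, 40.9 and 49.7 to 603 and 722 (3.54 ± 0.27, adjusted p = 8.25e-07), with the pore-forming protein Mpeg1 (2.05 ± 0.27) and the factor Cebpb (1.90 ± 0.17). Csf1r, the growth factor receptor that defines these cells, had overlapping signals of 855, 594 and 723 at 0 h and 723 and 797 at 20 h (0.08 ± 0.23, adjusted p = 0.864), and Lyz2, Fn1, C1qa and Ccr2 were the 4 that fell, numbering 2 without 20 h replicate 2. The summed signal of the DC identity list, 38735, 28746 and 34981 at 0 h, was 28980 and 24514 at 20 h, so the times overlapped. The part of other myeloid cells in the rises of Marco, Cd14 and Mertk was not tested. Single arrays decided the calls of these genes named here: C1qa (without either 20 h array) and Lyz2 (without 20 h replicate 2).

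Lymphoid, mast cell, erythroid and stromal lists were dim. Summed signals of the B cell list were 1691, 1504 and 2160 at 0 h and 1647 and 1742 at 20 h, and 1 of 15 members fell, Ighm (-1.17), whose direction turned when all its probe sets were averaged. The T and NK cell list summed to 1178, 1066 and 1194 at 0 h and 983.6 and 885.8 at 20 h. Its 1 rise was Cd3d (0.47) and its 1 fall Thy1 (-1.95), and Cd3e stayed between 8.71 and 15.5 on all 5 arrays. Among plasmacytoid DC markers Irf7 rose, while Spib and Klk1 fell by 2.45 and 2.17. The mast cell and basophil list had 1 rise, the histamine-making enzyme Hdc (1.77), and 1 fall, the receptor Kit (-1.13). Of 10 erythroid and megakaryocyte genes Klf1 rose (0.90) and Car2 and Hba-a1 fell (-1.87 and -0.91), and the sums were 885.8, 877.5 and 836.6 at 0 h and 375.2 and 388.8 at 20 h. Of 20 stromal genes 0 rose and 2 fell, Fn1 and Thy1, with 5 passing unadjusted, a share below that of all genes. Not passing without single arrays, of the genes named, were Cd3d (without 20 h replicate 2), Hba-a1 (without 20 h replicate 2, 0 h replicate 1 or 3 or some arrays of other groups) and Klf1 (without either 20 h array or 0 h replicate 1 or 2).

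**Figure D4:**
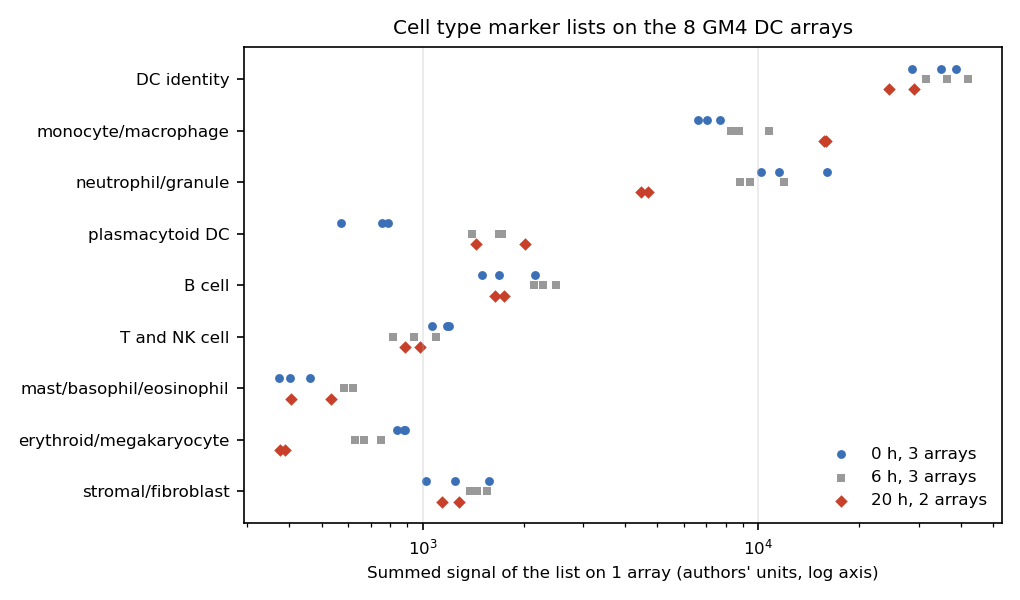
Summed signal of 9 marker lists on each GM4 DC array (horizontal log axis, authors' units, 1 point per array). The neutrophil and granule sum at 20 h (4691 and 4472) lies below all 0 h arrays and the monocyte and macrophage sum (15651 and 15943) above them, while the B cell sums overlap.

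The 3 arrays at 6 h place these differences in time. Between 6 and 20 h, 570 of 8251 genes (6.91%) rose and 578 (7.01%) fell. This comparison shares the 20 h arrays with the one above. Genes that were higher at 20 than at 6 h included Ptges, at 189, 189.5 and 152 at 6 h (20 h minus 6 h 3.08 ± 0.32, adjusted p = 5.13e-05), whereas Ptgs2 was already at 1230, 1314 and 1117 and its difference between these times did not pass (0.81 ± 0.32, adjusted p = 0.143). Of the 8 genes with the largest such rises, 5 had first fallen, with 6 h minus 0 h differences of -1.42 for C3ar1, -1.39 for Klf4, -2.39 for Fcgr2b, -3.66 for Scd2 and -1.25 for Stab1 (adjusted p 1.36e-07 to 7.02e-04). The same 6 h arrays served to choose these genes and to measure the falls. Choosing large rises after 6 h favours genes that were low at 6 h, so the count of 5 depends in part on the choice. C3ar1 went from 236, 255 and 369.9 at 0 h to 89.1, 127 and 74.9 at 6 h and 889 and 1022 at 20 h (20 h minus 6 h 3.13 ± 0.22, adjusted p = 2.47e-06). Klf4 went from 204, 205 and 141 to 59.2, 54.8 and 62.7 and 512 and 671 (3.01 ± 0.20, adjusted p = 2.47e-06), and the desaturase Scd2 from 1499, 1913 and 1740 to 101, 128 and 135 and 1001 and 945 (2.86 ± 0.26, adjusted p = 1.78e-05). The inhibitory Fc receptor Fcgr2b differed by 0.51 ± 0.43 between 0 and 20 h and by 2.90 ± 0.43 (adjusted p = 5.74e-04) between 6 and 20 h, so a comparison of 0 with 20 h alone does not show its course. Vegfa, a vascular growth factor, was uneven at 6 h, at 285, 79.1 and 43.0, and at 962 and 726 at 20 h (2.84 ± 0.54, adjusted p = 0.00340). Clec4d differed by 0.43 ± 0.19 from 0 to 6 h, which did not pass, and by 2.77 ± 0.22 from 6 to 20 h.

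Lower at 20 than at 6 h were Ngp, at 1425, 1204 and 1576 at 6 h (20 h minus 6 h -5.22 ± 0.29, adjusted p = 6.33e-07), and Fbp1, at 626, 237 and 239 (-4.17 ± 0.46, adjusted p = 7.72e-05), whose 6 h arrays overlapped those of 0 h. Mrc1 and Ltf had already fallen by 6 h (6 h minus 0 h -1.07 and -1.24), whereas Stmn1 and Klk1b11 had not passed (-1.03 and -1.31). From 6 to 20 h Stmn1, Klk1b11, Mrc1 and Ltf fell further, with differences of -2.89, -2.87, -2.63 and -2.42. Nusap1, a mitotic spindle gene, differed by -2.50 ± 0.47, a call lost without 20 h replicate 2. Ptx3, a soluble pattern recognition protein, peaked at 6 h, at 455, 540.0 and 497, against 33.6, 37.0 and 125 at 0 h and 72.6 and 70.9 at 20 h (-2.55 ± 0.34, adjusted p = 2.68e-04). Of costimulatory genes 9 of 18 were lower at 20 than at 6 h and 0 were higher, with a median of -0.64. Cd40 had signals of 1734, 1528 and 1693 at 6 h (20 h minus 6 h -0.95 ± 0.13, adjusted p = 2.68e-04) and Il12b fell by 2.02 over that interval (adjusted p = 0.00154). The oxidative defence list had 8 of 20 higher and 0 lower at 20 than at 6 h, glycolysis 7 of 15 and 0, respiration 0 of 31 and 11, and the cell cycle 1 of 51 and 24. Of type I interferon-stimulated genes 6 of 21 were higher and 2 lower, and the list median was already high at 6 h (6 h minus 0 h 2.04).

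Whether this response differed from that of DC grown without interleukin-4 was tested as the difference of the 20 h responses, GM4 minus GM. Of 8251 genes, 52 (0.630%) had the larger rise or smaller fall in GM4 DC and 71 (0.861%) the smaller rise or larger fall. The 2 comparisons share no arrays, but cell type, gradient and RNA quality cannot be told apart here, the Gapdh ratio being 1.18 to 2.46 on the 5 GM arrays. Leaving out single arrays moved the count of 157 probe sets to between 15 and 168, the lowest without GM4 20 h replicate 2. Of the genes named next, only Ngp, Rgs2 and Gbp2 passed with each single array left out in turn.

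Of 14 chemokines for monocytes and neutrophils, 4 had a larger rise in GM4 DC (Cxcl5, Ccl3, Cxcl2 and Ccl4), Ccl6 had a smaller fall and 0 differed the other way. Cxcl5 rose by 2.60 ± 0.34 in GM4 DC and differed by 0.24 ± 0.34 in GM DC, a difference of responses of 2.36 ± 0.48 (adjusted p = 0.0320). Ccl3 rose by 3.32 ± 0.28 against 1.25 ± 0.28 (2.07 ± 0.39, adjusted p = 0.0240) and Ccl6 fell less than in GM DC (2.02 ± 0.44, adjusted p = 0.0403). The rise of Clec4d was also larger, 3.20 ± 0.22 against 1.10 ± 0.22 (2.10 ± 0.31, adjusted p = 0.00561), as was that of Fpr2 (2.04 ± 0.44, adjusted p = 0.0385). Both genes started lower in GM4 DC. Clec4d in GM DC had signals of 859, 735 and 650 at 0 h and 1656 and 1560 at 20 h, above the GM4 signals at both times. Fpr2 in GM DC had signals of 451, 354 and 245 at 0 h and 796 and 735 at 20 h, the latter overlapping the GM4 signals. Fos differed by 0.20 ± 0.27 in GM4 DC and by -2.44 ± 0.27 in GM DC (2.64 ± 0.38, adjusted p = 0.00561), and the falls of Rgs2 and Cd93 were smaller, by 2.19 and 2.10. Cd93 was already low in GM4 DC, at 24.3, 22.8 and 52.2 at 0 h and 5.29 and 11.7 at 20 h, which left little room to fall. In GM DC its 0 h signals were 341, 217 and 330. Ccl3, Cxcl2, Ccl6, Fos, Rgs2 and Cd93 were lower on every GM4 than GM array at 0 h, whereas Cxcl5 overlapped. At 20 h the GM4 arrays of Cxcl5, Ccl3, Cxcl2 and Rgs2 lay above the GM arrays and those of Cd93 below. Those of Fos and Ccl6 overlapped at 20 h.

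Fbp1 had the largest difference, falling by 4.37 in GM4 DC and differing by -0.25 ± 0.46 in GM DC (-4.13 ± 0.65, adjusted p = 0.0113). Its GM signals were 7.67, 15.3 and 17.3 at 0 h and 3.02 and 15.7 at 20 h, near the floor at both times. Ngp fell by 5.72 against a GM difference of -2.19 ± 0.29 (-3.53 ± 0.41, adjusted p = 0.00259). Plac8, a cysteine-rich lysosomal protein, differed by 0.76 ± 0.33 in GM4 DC and 3.64 ± 0.33 in GM DC (-2.88 ± 0.46, adjusted p = 0.0126). Ccl5 differed by 0.13 ± 0.40 in GM4 DC and by 2.68 ± 0.40 in GM DC, where it had signals of 1296, 735 and 2939 at 0 h and 8985 and 9309 at 20 h (-2.55 ± 0.57, adjusted p = 0.0434). Its GM4 signals at 0 h, 4285 to 6273, lay between the GM signals of 0 h and of 20 h. The costimulatory receptor Tnfrsf9 and Cd86 were higher on every GM4 than GM array at 0 h and had smaller responses (-2.44 ± 0.42 with adjusted p = 0.0168, and -2.39 ± 0.38 with adjusted p = 0.0114), Cd86 with the doubt over its probe sets given above. The pantetheinase Vnn3 differed by 0.32 ± 0.24 against 2.62 ± 0.24, and Thy1 by -1.95 ± 0.37 against 0.33 ± 0.37. Vnn3 was near the floor in GM4 DC, at 3.30, 2.32 and 4.52 at 0 h and 10.3 and 6.28 at 20 h. Thy1 was near the floor in GM DC, at 3.81, 7.52 and 15.8 at 0 h and 26.1 and 6.62 at 20 h, which left little room to fall. The call of Thy1 was lost in 19 of 27 alternatives.

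**Figure D5:**
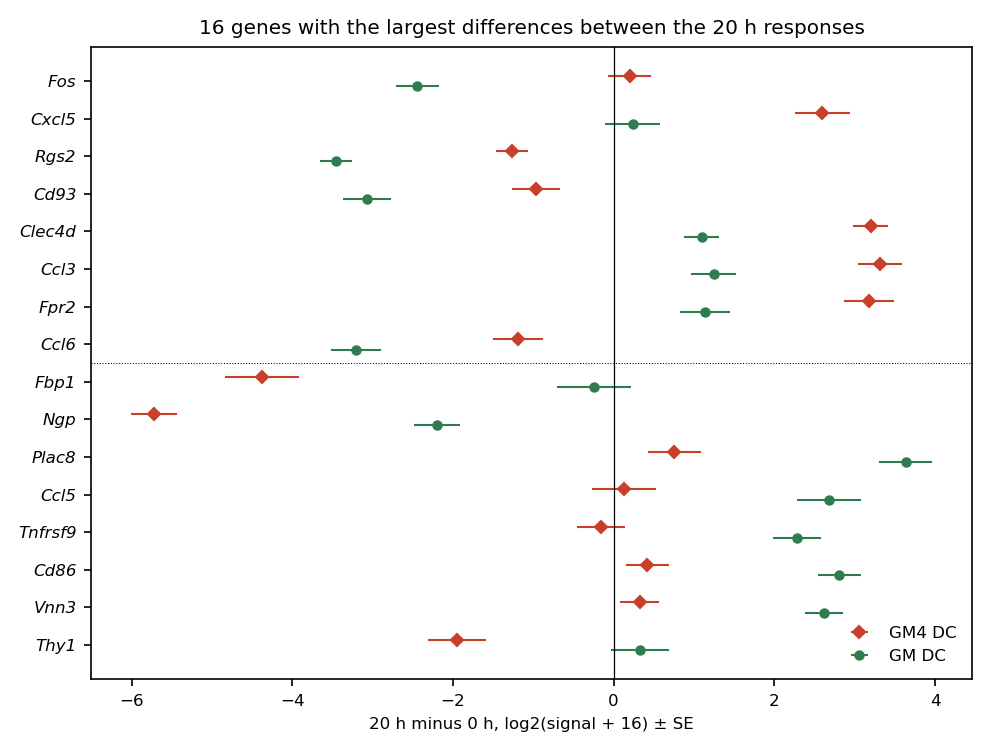
Log2 difference of 20 h minus 0 h with its standard error in GM4 DC (diamonds) and GM DC (circles) for the 16 genes with the largest called differences between the responses (horizontal axis, log2(signal + 16), 1 row per gene). Above the dotted line GM4 DC rose more or fell less, and below it they rose less or fell more.

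Of the interferon lists, 2 of 21 type I genes and 1 of 8 GTPases had a smaller rise in GM4 DC and 0 a larger one. Gbp2 rose by 2.20 ± 0.13 against 4.03 ± 0.13 in GM DC (-1.82 ± 0.19, adjusted p = 0.00199), and Usp18 by 1.95 ± 0.15 against 3.40 ± 0.15 (-1.45 ± 0.21, adjusted p = 0.00633). Socs1 and Irf1 likewise rose less, by 2.13 (adjusted p = 0.00561) and 1.12 (adjusted p = 0.0126). The large rises of Cmpk2 (6.20 ± 0.31 against 6.18 ± 0.31), Ptgs2 (6.17 ± 0.32 against 6.25 ± 0.32) and Cxcl10 (4.95 ± 0.28 against 4.97 ± 0.28) showed no difference past the threshold, with differences of responses of 0.02 ± 0.43, -0.08 ± 0.46 and -0.02 ± 0.40. For the lists of glycolysis (15 genes), respiration (31), lipid synthesis (24), the cell cycle (51) and ribosomal proteins (21), 0 members passed limma's test of the difference of responses. Over all genes only 0.630% passed as more positive and 0.861% as more negative, so a count of 0 is near that share. At an unadjusted p under 0.05 there were 43 members of these lists, and the share of all genes at that cut was not counted.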

How the data were processed

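RNA of 15 DC cultures had been measured on Affymetrix mouse arrays, 1 array per sample, after biotin labelling with an ENZO kit, per the labels. The deposited values are MAS5 signal intensities on a linear scale, the program being named in the submitters' processing notes with its version not given in the sources used here. Each array of the deposited intensity table had a trimmed mean of 150.1, so a scaling by the authors is already in the values.

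Groups were taken from the titles. The table holds 12488 probe sets, and the 12422 that are not among its 66 controls were tested. Of these, 10833 carried a single gene symbol, 396 several and 1193 none in the platform annotation. Entrez numbers matched 10817 to current gene records. A gene was read from its probe set with the highest mean log2 signal. Of 288 genes called and listed here, 203 had 1 probe set, 33 had another called in the same direction, 49 had others not called and 3 (Fdps, Mki67 and Rps4x) had another called the opposite way. The 49 included Stmn1, Rrm1, Mcm5, Hk2, Klf4, Nfkbiz, Tap1, Myb and Septin4. Group means of log2(signal + 16) for 6 groups were fitted on all 15 arrays with limma 3.58.1 in R 4.3.3, with an intensity trend in the moderation of variances, 9 residual and 4.762 prior degrees of freedom, and Benjamini-Hochberg adjustment over 12422 probe sets. All adjusted p-values are from this model. An exact test of 3 against 2 arrays cannot go below 0.1. The replicates are called biological without naming animals. The p-values rest on the spread between replicate arrays pooled over the 6 groups, not on that of the GM4 arrays at 0 h and 20 h alone. The number of arrays limits the precision.

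The 20 largest called changes each way, the 8 largest between 6 and 20 h and of the difference of responses, and members of 41 gene lists (741 of 933 listed genes measured) are named. The members and lists were chosen with earlier results of these data known. The fitting was tested on simulated data. Alternatives were other offsets, normalizations, filters, moderation, array weights, an RNA quality covariate, a replicate block, other sets of arrays and each array left out. The alternative without GM 0 h replicate 3 and GM 6 h replicate 1 was added after seeing the data.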

Additional observations from a re-analysis of the deposited data

Results flagged for a closer look

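Among the genes named here as list members or for this difference itself, 44 had 20 h minus 0 h responses that differed between GM4 and GM DC. This was by limma's test of the difference itself, at an adjusted p under 0.05. Over all 8251 genes, 52 passed as more positive and 71 as more negative in GM4 DC. The kinds of genes given below therefore depend in part on that choice. The values are differences of log2(signal + 16) responses, GM4 minus GM. All but Ngp, Rgs2 and Gbp2 lost the call when some single array was left out, 41 of them without GM4 20 h replicate 2.

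The responses more positive in GM4 DC included chemokines and receptors of myeloid cells. Cxcl5 differed by 2.36, Ccl3 by 2.07, Ccl6 by 2.02, Cxcl2 by 1.71 and Ccl4 by 1.62. Among receptors, Cd93 and Clec4d each differed by 2.10, Fpr2 by 2.04, Clec4a2 by 1.50 and the LPS co-receptor Cd14 by 1.39. The immediate early gene Fos differed by 2.64, the regulator of G protein signals Rgs2 by 2.19 and the lysosomal hexosaminidase chain Hexa by 0.93.

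Among responses more negative in GM4 DC, those of the metabolic enzyme Fbp1 and the granule protein Ngp differed by -4.13 and -3.53, those of Plac8, Vnn3 and Thy1 by -2.88, -2.30 and -2.28, and that of the chemokine Ccl5 by -2.55. Of costimulatory genes and their adaptors, Tnfrsf9 differed by -2.44, Cd86 by -2.39, Traf1 by -1.65, Traf6 by -1.11 and Cd40 by -0.84. NF-κB pathway genes included Nfkbia (-1.55), Birc2 (-1.29) and Nfkb2 (-1.13). Gadd45b, a relative of the stress protein Gadd45g, differed by -1.88, a call lost in 19 of 27 alternatives. Interferon-induced genes included Socs1 (-2.13), Gbp2 (-1.82), Usp18 (-1.45), Irf1 (-1.12) and Samhd1 (-0.92). Proteasome genes, both immunoproteasome and constitutive, were Psma6 (-1.28), Psme1 (-1.08), Psmb9 (-1.02) and Psmb8 (-0.90), and of antigen processing genes H2-Oa differed by -1.11 and the cathepsin Ctsh by -0.92. The interleukin-1 decoy receptor Il1r2 and the interleukin-13 receptor chain Il13ra1 differed by -2.07 and -1.22, the arginase Arg1 by -1.40, and the factors Spib and Bcl6 by -1.82 and -1.54. Replicate groups held 2 or 3 arrays, too few for a test of single outlying arrays.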

How the results depend on the processing

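The counts of 2606, 1082 and 1524 probe sets called, higher and lower at 20 h than at 0 h ranged from 1392 to 2711, 552 to 1133 and 840 to 1578 when single arrays were left out, the lowest without GM4 20 h replicate 2. That leaves 1 array at 20 h, assumed to vary like the other groups. Median centring gave 1256 higher and 1317 lower. Under the other settings the total lay between 1991, with the probe sets of each gene averaged and so fewer tests, and 3192 with array weights. For 20 h minus 6 h the count of 1452 ranged from 566 to 1515 with single arrays left out and was 2212 with array weights. For the difference of responses the count of 157 ranged from 15 to 168, and was 304 with array weights and 260 with the replicate number as a block. With that block 2886 probe sets were called for 20 h minus 0 h and 1690 for 20 h minus 6 h. The labels do not tie equal numbers together, and same-numbered 0 h and 20 h arrays had correlated deviations of 0.13 and 0.04 over 2 pairs. The causes of these shifts were not tested. Averaging all probe sets turned Ighm to 0.05 and Rps4x to 0.36. Of 288 named 20 h minus 0 h calls, 57 were lost without GM4 20 h replicate 2, 58 without replicate 1, 35 without 0 h replicate 1 and 29 without 0 h replicate 2, against 0 to 17 under each other alternative. Of 44 named calls on the difference of responses, 41 were lost without GM4 20 h replicate 2. Without the 2 doubted GM arrays the 3 counts were 2735, 1542 and 177. Signals below 16 limit what can be said of dim genes.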
